A study of Homo sapiens with 6 samples.

Results

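Of 8 genes of the caspase machinery (CASP2, CASP6, CASP8, CASP9, APAF1, XIAP, BIRC2 and DIABLO), CASP9 and 1 of the 2 rows listed for DIABLO rose after CTI-2 in human breast cancer cells, by 1.35-fold and 1.44-fold. Of all 9848 genes tested 8.03% were called. Neither rise passed in DESeq2, nor in 3 of the 6 fits that left out a library. CASP9 also failed to pass in the fit without control library 3. The other 6 genes did not pass the test or could not be tested. The genes were taken by symbol from a table of 16362 genes. The 8 symbols matched 9 rows, because DIABLO is listed under 2 Ensembl identifiers, and 8 of the 9 rows had enough reads to be tested. The cells are MDA-MB-231 per the labels, an established triple-negative breast cancer line, given no agent (3 control libraries) or CTI-2 (3 libraries) for 24 h. Those 2 groups are called control and treated libraries below. No more than the code name of CTI-2 is known here, and neither its dose nor any vehicle in the controls is stated. RNA was read as cDNA on the Oxford Nanopore platform. Whether the libraries are from separate cultures is not stated, so p-values measure only the spread between these libraries, which may be technical.

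Caspases are cysteine proteases that cut other proteins after aspartate and carry out apoptosis. In the mitochondrial route, cytochrome c released from mitochondria binds APAF1, which assembles into the apoptosome and activates caspase-9. In the death receptor route, ligand-bound receptors recruit caspase-8 through the adaptor FADD, and both routes converge on the executioner caspases, to which caspase-6 is commonly assigned. The inhibitor of apoptosis proteins restrain this: XIAP binds and blocks caspases directly, while cIAP1, the product of BIRC2, is a ubiquitin ligase that mainly controls signalling at tumour necrosis factor receptors. DIABLO (also called SMAC) leaves mitochondria with cytochrome c and frees caspases by binding the inhibitors. Caspases are made as inactive precursors and are regulated mainly by cleavage, which RNA counts do not measure.

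Total counts ran from 2208261 to 3929532 per library, where 3 counts correspond to 0.763 to 1.36 CPM (counts scaled to a library total of 1000000). Control 2 stood nearer to the CTI-2 libraries than the other controls did, with a first principal component of -8.16, where controls 1 and 3 had -23.1 each, and the treated libraries 13.7 to 25.1. It also held more reads of short transcripts: in the fifth of genes with the shortest transcripts its log2 values deviated from the gene means by a median of 0.08, against -0.09 and -0.18 in controls 1 and 3 and 0.07 to 0.08 in the treated ones. Among markers of the line, CD44 was at 131 to 188 CPM and VIM, usually a highly expressed gene of this line, at only 14.5 to 18.9 CPM. AXL was at 2.98 to 7.41 CPM. ESR1 had 0 to 2 counts and CDH1 0 or 1 count per library, and PGR and the leukocyte marker PTPRC were not among the genes listed. ERBB2, the third receptor of the triple-negative definition, was detected at 4.98 to 11.1 CPM (11 to 42 counts), and the endothelial marker PECAM1 had 5 to 18 counts per library. The epithelial genes EPCAM (6.98 to 10.6 CPM) and KRT8 (79.3 to 88.6 CPM) were detected, the fibroblast marker DCN had 0 to 2 counts, and COL1A1 was at 52.2 to 87.4 CPM. The part of cell makeup in the results below was not tested.

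CASP9 lies on chromosome 1 at 15490832 to 15526534 (minus strand, GENCODE 29 on GRCh38). The called DIABLO row, ENSG00000184047, spans 122207663 to 122226568 on chromosome 12 (minus strand), and the second row, ENSG00000284934, spans 122207662 to 122227534 on the same strand. On the same annotation, CASP2 lies on chromosome 7 at 143288215 to 143307696 (plus strand), CASP6 on chromosome 4 at 109688622 to 109703583 (minus), CASP8 on chromosome 2 at 201233443 to 201287711 (plus) and APAF1 on chromosome 12 at 98645141 to 98735433 (plus). XIAP lies on chromosome X at 123859724 to 123913979 (plus) and BIRC2 on chromosome 11 at 102347211 to 102378670 (plus). The 2 DIABLO rows end within a base of each other and are annotated with different starts. Which start was used in these cells was not tested. The stretches below are shown because CASP9 and DIABLO are the genes that rose and because the DIABLO rows differ in their start. Each is the part without any annotated exon of the 250 bases before the RefSeq start nearest to the row's own start (RefSeq, GRCh38.p14), read 5′ to 3′ on the gene's strand, with every GGGCGG (the GC box bound by SP1 family factors, searched on both strands, overlapping matches included) in capitals. The RefSeq start of CASP9 lies 1744 bases inside the gene span given above, and the stretch printed also lies within that span. The RefSeq starts of the called and the second DIABLO row lie 0 and 78 bases from the row's own start. The stretch printed for the called DIABLO row lies within the span of the second row.
CASP9, chr1:15524890-15525040, minus strand: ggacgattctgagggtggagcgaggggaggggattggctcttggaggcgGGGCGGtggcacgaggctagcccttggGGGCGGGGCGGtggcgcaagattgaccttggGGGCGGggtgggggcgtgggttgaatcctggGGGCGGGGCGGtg
DIABLO (ENSG00000184047), chr12:122226654-122226818, minus strand: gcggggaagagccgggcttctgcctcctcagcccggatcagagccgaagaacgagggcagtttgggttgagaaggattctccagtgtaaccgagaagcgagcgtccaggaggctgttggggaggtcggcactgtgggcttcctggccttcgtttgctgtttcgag
DIABLO (ENSG00000284934), chr12:122227535-122227706, minus strand: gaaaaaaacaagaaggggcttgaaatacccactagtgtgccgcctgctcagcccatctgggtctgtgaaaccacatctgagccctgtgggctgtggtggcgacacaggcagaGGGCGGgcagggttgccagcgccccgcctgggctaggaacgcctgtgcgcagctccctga
The full 250 bases before the CASP9 start held 8 GC boxes, 6 of them in the stretch printed, and 0.58% of the 35116 RefSeq promoters hold at least as many in a window of this length. Each DIABLO window held 1 GC box, and 42.64% of promoters hold at least 1. The CASP9 window and that of the second DIABLO row each held 1 CCAAT, found in 32.0% of promoters, and none of the 3 windows held TATAAA, found in 10.7%. These matches describe the sequence only.

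Caspase-9 is the initiator protease of the mitochondrial route. CASP9 stood at 66.3, 60.1 and 60.0 CPM in control libraries 1, 2 and 3 and at 73.6, 79.2 and 91.0 CPM in treated libraries 1, 2 and 3. All 3 treated libraries lay above all 3 controls and spread more widely than they did. The mean went from 62.1 ± 3.59 to 81.3 ± 8.91 CPM (SD, n = 3 each), a 1.35-fold rise (edgeR quasi-likelihood log2 fold change 0.43, SE 0.13, Benjamini-Hochberg adjusted p = 0.0266 over 9848 genes). The rise is modest and its call was not stable. Without treated library 3, the highest, the log2 fold change was 0.35 and the edgeR adjusted p 0.181, and the call was also lost without control 1, control 3 or treated library 2 (0.0572, 0.0794 and 0.0731), with library totals in place of TMM (0.0602) and in DESeq2 (0.063). Without control 2, the library that stood apart, CASP9 rose by 0.46 on the log2 scale (adjusted p = 0.0219). In bulk RNA a change in the level per cell and a change in the share of cells with the transcript cannot be told apart.

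DIABLO encodes the mitochondrial protein that antagonises the inhibitors of apoptosis. Its row ENSG00000184047 stood at 33.5, 30.3 and 34.5 CPM in controls and at 44.7, 46.5 and 44.8 CPM in treated libraries. The groups were well apart and the 3 treated values were close together. The mean went from 32.8 ± 2.19 to 45.4 ± 1.01 CPM (SD, n = 3 each), a 1.44-fold rise (edgeR log2 fold change 0.52, SE 0.14, adjusted p = 0.0179). The size hardly moved with the library left out (0.51 to 0.53), but the adjusted p did: it missed the threshold without control 1 (0.0529), treated library 2 (0.0788) or treated library 3 (0.0543), and in DESeq2 (0.0579). Without control 2 the DIABLO row rose by 0.52 on the log2 scale (adjusted p = 0.021).

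The second DIABLO row, ENSG00000284934, stood at 38.9, 41.0 and 41.3 CPM in controls and at 52.6, 43.8 and 58.0 CPM after CTI-2. Its groups did not overlap either, with treated library 2 close to the controls. The means were 40.4 ± 1.29 and 51.5 ± 7.15 CPM (SD, n = 3 each), and it did not pass (edgeR log2 fold change 0.39, 95% interval 0.10 to 0.67, adjusted p = 0.0862). Without control 2 it passed, with a log2 fold change of 0.46 and an edgeR adjusted p of 0.0496. That fit called 1610 of 9995 tested genes, against 791 of 9848 with all libraries.

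The 2 DIABLO rows cannot be read as independent measurements. They share 2006 exonic bases, which is 29.6% of the exonic bases of ENSG00000184047 and 85.3% of those of ENSG00000284934, and how reads were divided between them is not stated in any source used here. ENSG00000184047 took 46.3, 42.5 and 45.5% of the DIABLO reads in control libraries 1, 2 and 3 and 45.9, 51.5 and 43.6% in treated libraries 1, 2 and 3. The 95% exact (Clopper-Pearson) intervals, which cover counting error only, ran from 36.6% at the lowest to 57.6% at the highest and overlapped between the groups. With both rows summed, a choice made after seeing the data, DIABLO stood at 72.4, 71.3 and 75.8 CPM in controls and at 97.4, 90.3 and 103 CPM after CTI-2. The sum rose 1.37-fold (edgeR log2 fold change 0.45, SE 0.12, adjusted p = 0.013), and missed the threshold without control 1, treated library 1 or treated library 3 (0.0594, 0.0523 and 0.0857). Another counted gene on the same strand, AC048338.1, shares 1139 exonic bases with each row. Its counts of 43, 45 and 33 in controls and 31, 54 and 37 after CTI-2 gave a log2 fold change of 0.14 (adjusted p = 0.758). On the opposite strand DIABLO overlaps B3GNT4 (0 to 4 counts per library), CASP9 overlaps CELA2B (0 or 1) and APAF1 overlaps ANKS1B (0 to 2).

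**Figure D1:**
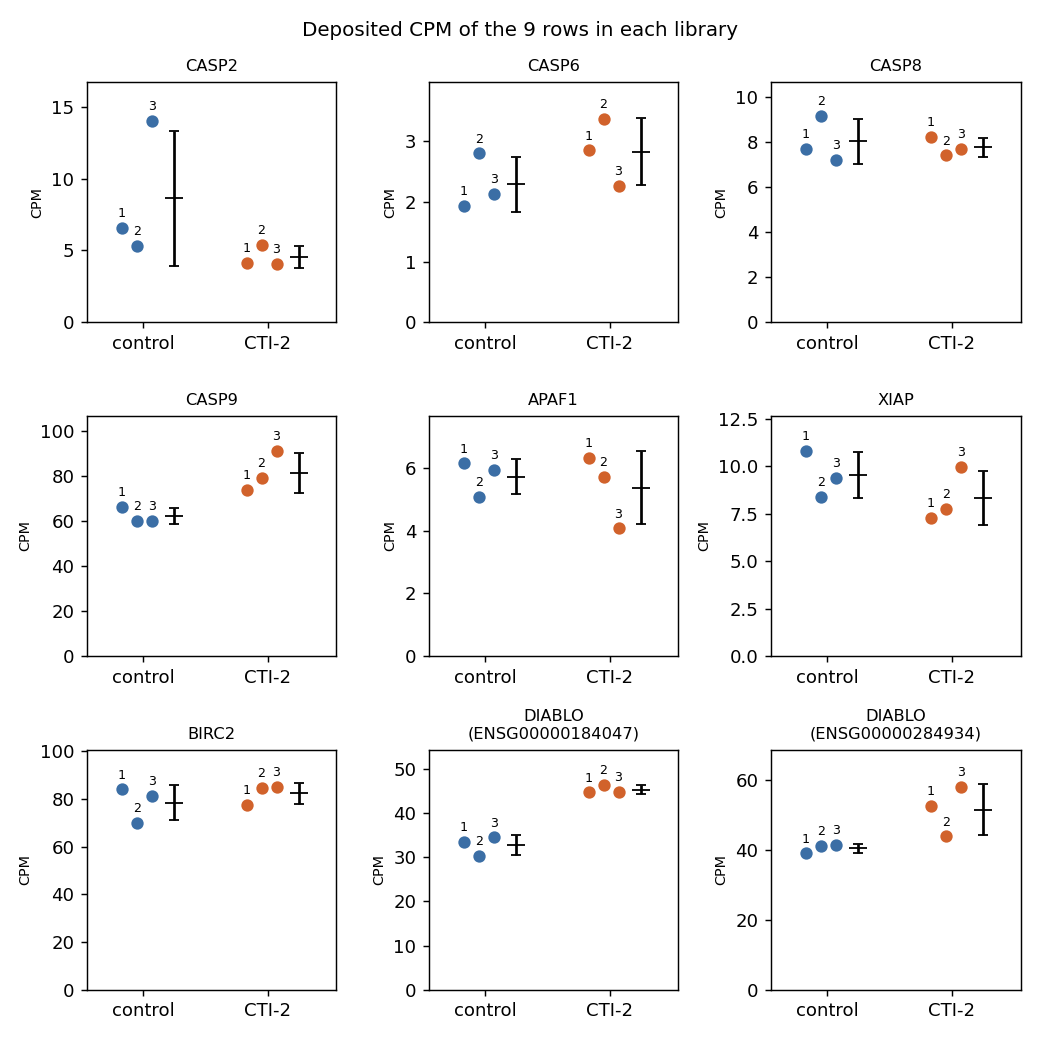
Deposited CPM of each of the 9 rows (vertical axes, from 0, scaled per panel) in control and CTI-2 libraries (points, numbered by replicate), with the mean and SD of 3 libraries as a black bar. CASP9 and both DIABLO rows have no overlap between groups, and for CASP2 control 3 stands far above the other libraries at 14 CPM.

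APAF1, the scaffold that activates caspase-9, was not called. It had 16, 20 and 14 counts in controls (6.16, 5.09 and 5.96 CPM) and 20, 17 and 9 counts after CTI-2 (6.34, 5.73 and 4.08 CPM). The groups overlapped and the edgeR log2 fold change was 0.00 (adjusted p = 0.999), with a 95% interval of -0.70 to 0.70. At this depth the interval leaves room for changes of up to 1.62-fold in either direction, which spans the size of the CASP9 and DIABLO rises.

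Caspase-8 and caspase-2 are the other initiator caspases here. CASP8, the initiator of the death receptor route, stood at 7.70, 9.16 and 7.23 CPM in controls and at 8.24, 7.41 and 7.70 CPM after CTI-2. The values were interleaved, and the edgeR log2 fold change was -0.03 (95% interval -0.58 to 0.52, adjusted p = 0.968). CASP8 lies 4036 bases from CASP10 on chromosome 2, which in turn lies 6193 bases from CFLAR, whose product c-FLIP blocks caspase-8 activation. CASP10, with 0 to 3 counts in any library, was not tested, and the log2 fold change of CFLAR was -0.23 (95% interval -0.93 to 0.48, adjusted p = 0.743).

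Caspase-2 is activated in a complex with PIDD1 and CRADD. CASP2 had 17, 21 and 33 counts in controls (6.55, 5.34 and 14 CPM) and 13, 16 and 9 counts after CTI-2 (4.12, 5.39 and 4.08 CPM). The means were 8.65 ± 4.71 and 4.53 ± 0.747 CPM (SD, n = 3 each). The edgeR log2 fold change of -0.79 (SE 0.34) was the largest in size among the 8 rows tested but did not pass (unadjusted p = 0.026, adjusted p = 0.144). Control 3 set much of that value: without it the log2 fold change was -0.35 (adjusted p = 0.662). Neither partner was called: the log2 fold change was -0.58 for PIDD1 (adjusted p = 0.286) and 0.51 for CRADD (adjusted p = 0.111).

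CASP6, an executioner caspase that cuts nuclear lamins, had too few reads for the test. It had 5, 11 and 5 counts in controls and 9, 10 and 5 counts after CTI-2, or 2.28 ± 0.457 and 2.83 ± 0.554 CPM (SD, n = 3 each), and the ranges overlapped. Without the filter on low counts its edgeR log2 fold change was 0.33 (adjusted p = 0.773). CASP6 shares 105 exonic bases with MCUB on the opposite strand, a gene with 12 to 23 counts per library. No source states whether reads were counted by strand, so the CASP6 value is uncertain.

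The inhibitors showed no called change. XIAP stood at 10.8, 8.4 and 9.36 CPM in controls and at 7.29, 7.75 and 9.96 CPM after CTI-2, on 22 to 33 counts per library. The groups overlapped, and the edgeR log2 fold change was -0.15 (95% interval -0.68 to 0.37, adjusted p = 0.771). BIRC2, with 188 to 275 counts per library, was measured more finely: it stood at 84.0, 70.0 and 81.3 CPM in controls and at 77.4, 84.6 and 85.1 CPM after CTI-2. Its log2 fold change was 0.13 with a 95% interval of -0.11 to 0.37 (edgeR adjusted p = 0.553), so a rise above 1.29-fold lies outside that interval. BIRC3, which encodes the related ligase cIAP2 and lies 7807 bases from BIRC2 on chromosome 11, stood at 15.6 ± 3.47 and 21.8 ± 1.81 CPM (SD, n = 3 each) without overlap between groups, and missed the threshold (log2 fold change 0.52, adjusted p = 0.0993). Whether BIRC2 and BIRC3 differ in their response was not tested. BIRC5, which encodes survivin, was at 181 ± 14.6 and 197 ± 10.5 CPM (adjusted p = 0.351), and the giant ligase gene BIRC6 at 15.8 ± 6.0 and 11.9 ± 1.04 CPM (adjusted p = 0.497).

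Among the 8 tested rows 2 were called, both higher, where 8.03% of all 9848 tested genes were called (3.39% higher and 4.64% lower). With 2 calls, 1 from a DIABLO row that shares exonic bases with the second, this share cannot be set apart from the background. The CPM of 3 of the 8 rows did not overlap between groups, against 28.8% of tested genes, and 4 rows had an unadjusted p under 0.05, against 23.9%. The rows' median log2 fold change was 0.06, with 4 positive and 4 negative values from -0.79 to 0.52, and that of all tested genes was -0.01.

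The called rows have shorter transcripts than the other tested rows. The median length of the annotated transcripts in GENCODE 29 is 1444.5 bases for the called DIABLO row and 1820 for CASP9, against 1906 for CASP8, 2256 for the second DIABLO row, 3331 for BIRC2, 4006 for CASP2, 4539 for APAF1 and 8584 for XIAP. CASP6, which was not tested, has the shortest median of the 9 rows, 1347 bases. Over all genes the called higher genes had a median of 1570 bases and the called lower genes of 2583 bases. After the trend of each library with transcript length was taken out, the log2 fold change was 0.40 for CASP9 (edgeR adjusted p = 0.0327) and 0.47 for the DIABLO row ENSG00000184047 (adjusted p = 0.0288), so both calls were kept in that fit. With the replicate number as a block as well, CASP9 was no longer called (0.40, edgeR adjusted p = 0.0547).

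**Figure D2:**
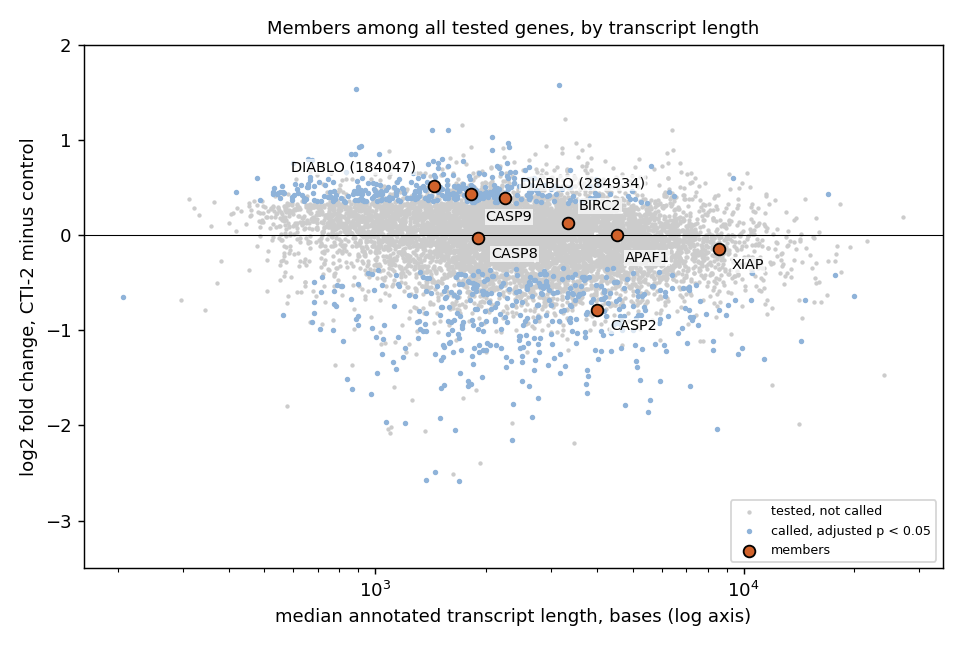
Log2 fold change of every tested gene with an annotated transcript (vertical axis, CTI-2 minus control) against its median transcript length in bases (log axis), with called genes in blue and the 8 tested rows as labelled orange points. CASP9 and both DIABLO rows (told apart by the end of their identifiers) lie among genes of 1444.5 to 2256 bases, and XIAP at 8584 bases lies near 0.

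Other genes of the pathway were taken from a list of 55 symbols in 6 groups, of which 48 were in the table and 34 were tested. In all 3 were higher, 2 were lower and 29 did not pass, with a median log2 fold change of -0.14 against -0.01 for all tested genes. These 5 calls stand beside 3.39% called higher and 4.64% called lower among all tested genes, the background for the group counts that follow too. None of the 4 tested other caspases (CFLAR counted with them) and none of the 3 tested other inhibitors passed. At an unadjusted p under 0.05 edgeR gave 0 of these caspases and 1 of these inhibitors, and neither DESeq2 nor limma-voom called BIRC3, BIRC5 or BIRC6. Limma-voom did not call CFLAR, to which DESeq2 gave no adjusted p.

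Of 4 tested mitochondrial factors and antagonists, 1 rose and 3 did not pass. AIFM1, which encodes apoptosis-inducing factor, a flavoprotein of the same mitochondrial compartment as DIABLO, rose from 176 ± 9.66 to 231 ± 3.46 CPM (SD, n = 3 each; edgeR log2 fold change 0.44, adjusted p = 0.00845), and missed the threshold without treated library 2 (adjusted p = 0.0513). CYCS, the cytochrome c gene, was at 524 ± 47.1 and 576 ± 6.13 CPM (edgeR log2 fold change 0.18, adjusted p = 0.337). CYCS passed without control 2 (0.30, edgeR adjusted p = 0.0105), the fit with 1610 calls over all genes. HTRA2, whose protease product also binds the inhibitors, was at 63.3 ± 9.02 and 59.1 ± 11.5 CPM (adjusted p = 0.838).

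Death receptor genes moved in both directions. Of 5 tested, FAS rose from 45.3 ± 5.31 to 64.6 ± 1.63 CPM (SD, n = 3 each; edgeR log2 fold change 0.56, adjusted p = 0.00745), a call lost without control 1 (adjusted p = 0.0611). TNFRSF1A, the main receptor for tumour necrosis factor, fell 2.24-fold, from 69.1 ± 20.7 to 29.6 ± 5.91 CPM (SD, n = 3 each; -1.16 on the log2 scale, adjusted p = 0.000666), and passed in all 15 alternatives. The other 3 tested receptors did not pass. FADD, the adaptor that joins these receptors to caspase-8, had 3, 1 and 0 counts in controls and 0 in each treated library, too few to test, and none of the 7 tested adaptors and kinases passed.

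Of 11 tested caspase substrates 1 rose, 1 fell and 9 did not pass. GSN, the gene of the actin-severing protein gelsolin, rose from 56.2 ± 6.23 to 78.5 ± 3.68 CPM (SD, n = 3 each; edgeR log2 fold change 0.53, adjusted p = 0.00624). ROCK1, the gene of a kinase that drives membrane blebbing once cut, fell from 18.1 ± 3.74 to 10.8 ± 1.09 CPM (-0.68, adjusted p = 0.0488), and was called in 5 of 16 settings; of the 6 fits that leave out a library, it was called in the 1 without control 2. PARP1 was at 86.6 ± 5.72 and 70.5 ± 12.2 CPM (-0.26, adjusted p = 0.217) and passed once the trend with transcript length was removed (-0.44, adjusted p = 0.0334). DFFA, the inhibitor of the apoptotic nuclease, was at 46.6 ± 5.90 and 48.2 ± 3.03 CPM (adjusted p = 0.782).

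**Figure D3:**
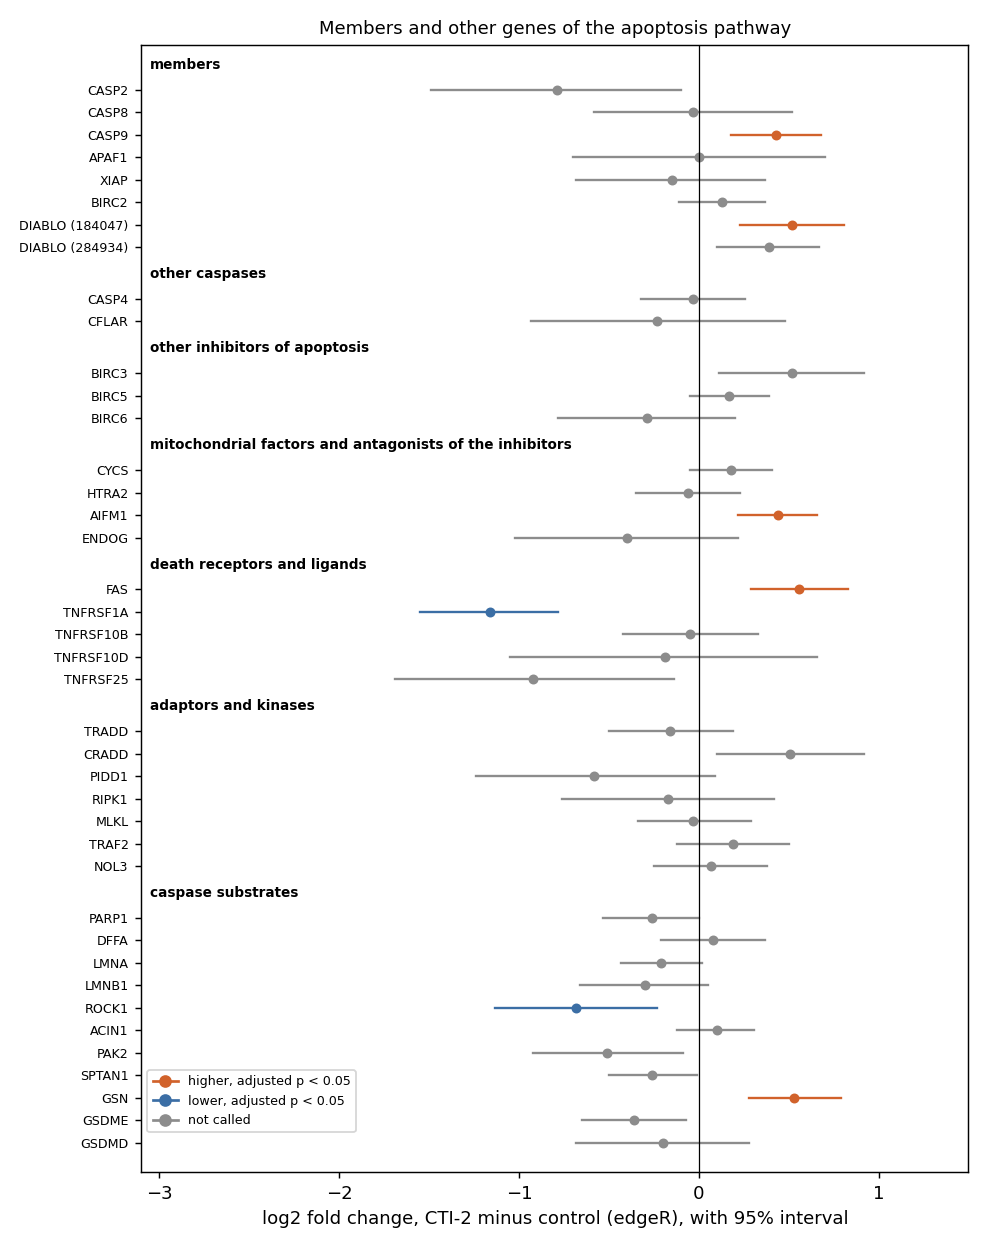
Log2 fold change of tested rows, with the 95% interval of each from the edgeR fit (horizontal axis, CTI-2 minus control), for the members and the 6 groups of other pathway genes. Orange marks called higher, blue called lower and grey not called; CASP9, DIABLO, AIFM1, FAS and GSN are higher and TNFRSF1A and ROCK1 lower.

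The DIABLO row ENSG00000184047 had the smallest adjusted p of the members, and the genes whose log2 CPM over the 6 libraries were most like it were SAT1 (Pearson r = 0.9964), IFRD1 (0.9948) and MED10 (0.9933). This is a description over 6 libraries in 2 groups, where r also reflects the difference between the groups. In all, 87 tested genes had r over 0.95 with DIABLO. The log2 fold changes of SAT1, IFRD1 and MED10 were 1.53, 0.97 and 0.42, so their patterns were alike while their sizes differed.

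**Figure D4:**
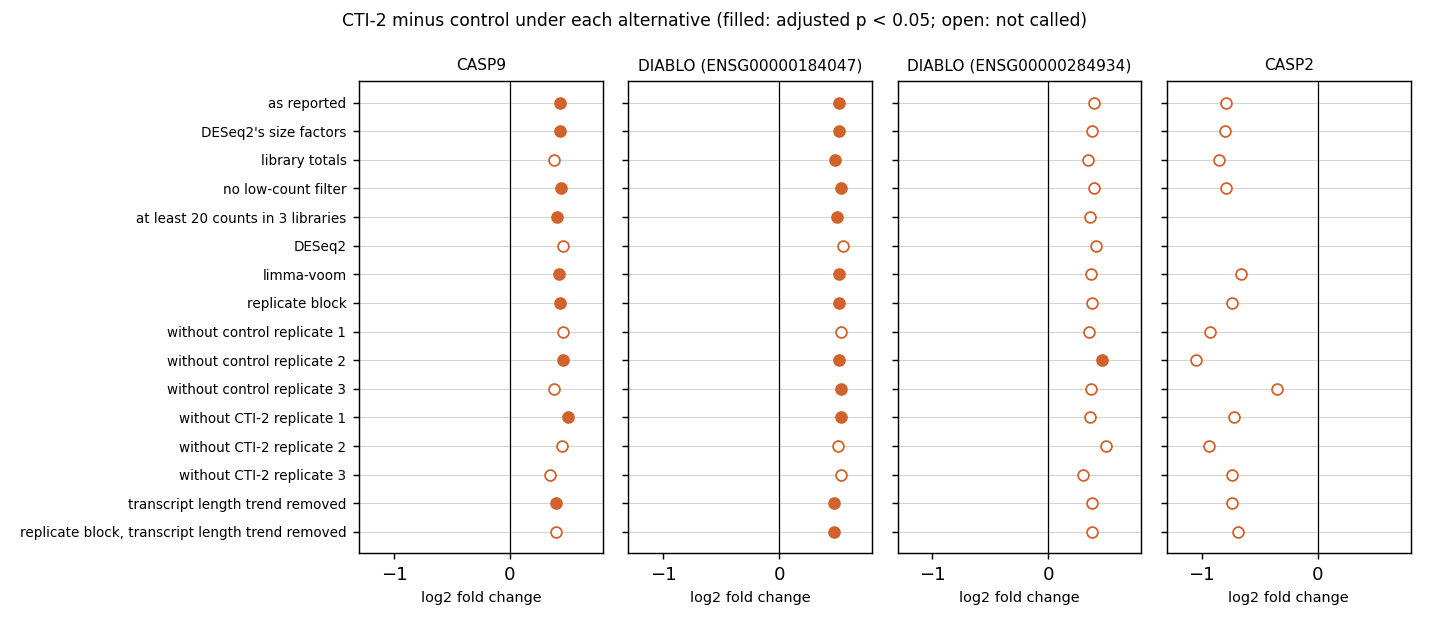
Log2 fold change (horizontal axes, CTI-2 minus control) of CASP9, both DIABLO rows and CASP2 as reported and under 15 alternatives (vertical axis), filled where the adjusted p was under 0.05. CASP9 and both DIABLO rows stay above 0 in every setting while their calls come and go; CASP2 has no value under the filter of 20 counts and no adjusted p in DESeq2.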

How the data were processed

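Expression was measured in 3 control and 3 CTI-2 libraries, grouped by their labels. Per the labels' protocols, total RNA was made into libraries with the Oxford Nanopore cDNA-PCR kit, and per the submitters' processing notes reads were aligned with minimap2. No version, genome build, annotation, counter, strand setting or filter is named in the sources used here. Deposited by the authors were whole-number counts per gene and the same values as CPM, which equal count over library total to within 4.4e-11. Gene positions and transcript lengths come from GENCODE 29, which holds all 14408 Ensembl identifiers. The deposited length equals its span for 80.6% of them, and for each of the 9 member rows except that of BIRC2.

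The test was the robust quasi-likelihood test of edgeR 4.0.16 (R 4.3.3), CTI-2 minus control, on the 9848 genes that filterByExpr left, with TMM scaling, with Benjamini-Hochberg adjustment over all tested genes and a threshold of 0.05. SE and 95% intervals follow from the fitted change and its F statistic. The fit was tested on simulated data. The members and lists were chosen with earlier results of these data known. Genes named are the 8 members, every called gene of the pathway list, further genes of it whatever their result, and the 3 genes most like the leading member. CASP10, CRADD, PIDD1, MCUB, B3GNT4, CELA2B, ANKS1B and AC048338.1 were added after their values were seen, as neighbours or partners. Some genes that this rule took are not reported here, and the counts over the list include them. SEPTIN4 was matched by identifier to its older symbol.

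The tools tried instead were DESeq2 1.42.0 and limma-voom (limma 3.58.1). Within edgeR the alternatives were scaling by library totals or by DESeq2's size factors, no filter or a minimum of 20 counts in 3 libraries, a replicate block, 1 library fewer, and a lowess correction (span 0.3) for transcript length, which 93.6% of tested genes have. Libraries of 1 group differed by more than sampling noise. Chi-square over degrees of freedom was 3.53 to 6.03 per pair of controls and 1.68 to 2.26 per pair of treated libraries. Reads carry no molecular identifiers.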

Additional observations from a re-analysis of the deposited data

How the results depend on the processing

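CASP9 and both DIABLO rows kept a positive log2 fold change in all 15 alternatives (0.35 to 0.50, 0.47 to 0.55 and 0.30 to 0.50). CASP2 kept a negative one in every alternative compared for it. The filter of 20 counts removed CASP2, and its DESeq2 change was not compared because it had no adjusted p. The adjusted p of CASP9 ranged from 0.0219 to 0.181, that of DIABLO row ENSG00000184047 from 0.0149 to 0.0788 and that of row ENSG00000284934 from 0.0496 to 0.327. Of the members 2 rows were called as reported, 1 with library totals, 1 (without CASP9) with the replicate block and the length trend removed together, 0 in DESeq2 and 0 to 3 when a library was left out; the cause was not tested. DESeq2 gave CASP2, CASP6 and APAF1 no adjusted p. Of the pathway list 5 genes were called, and 3 to 8 when a library was left out. Over all genes 791 were called (57.8% lower), 498 in DESeq2 (47.0% lower) and 400 to 1610 when a library was left out, with 1610 without control 2 (40.6% lower); fewer libraries also mean less data. Same-numbered libraries did not deviate together (r = -0.05, 0.01 and -0.12 for numbers 1 to 3, across genes; 1 of 6 libraries correlated best with its own number), so the numbers were not taken as pairs. With the replicate number as a block 942 genes were called, of them 2 member rows and 5 genes of the pathway list. Depth limits CASP6, CASP2, CASP8, APAF1 and XIAP most, with 5 to 36 counts per library.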
